A study of Mus musculus with 3 samples.

Results

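The genes described here are the mitochondrial carriers of the Slc25 family, taken as every gene probe whose symbol is Slc25a followed by a number, with Ucp2 added. The rule used symbols alone and found 43 genes with 76 probes, out of 28090 genes with 41174 probes on the array. Each of 3 Agilent 2-colour whole mouse genome arrays compared 2 heart RNA pools, which by the sample labels came from Lrrc10-/- mice in the Cy5 channel and from wildtype mice (WT, Lrrc10+/+) in the Cy3 channel. Both genotypes were C57/BL6 mice of 2 months, fed freely, with no other allele or agent named, and each channel held RNA pooled from 2 hearts. Lrrc10 encodes a leucine-rich repeat protein of heart muscle cells, and mice without it develop a dilated heart. The same dye served the same genotype on every array, so genotype and dye cannot be told apart. The labels call the WT RNA a reference pool, the study's methods describe littermate hearts and 3 biological replicates, and the scaled level of a tested probe varied more between arrays in Cy3 (median SD 0.38, log2) than in Cy5 (0.21).

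SLC25 carriers are nuclear-encoded proteins of the mitochondrial inner membrane. Each is built from repeats of the same membrane-spanning unit and opens in turn to the cytosol and to the matrix, which lets it exchange or co-transport nucleotides, phosphate, carboxylates, amino acids, acylcarnitines and cofactors that the membrane otherwise holds back. In the heart, where mitochondria make nearly all of the ATP that contraction uses, the ADP/ATP carrier and the phosphate carrier are among the most abundant mitochondrial proteins. The uncoupling proteins are a branch of the same family, and Ucp2 is an Slc25 member under another name.

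All probes on the array are 60 bases long, and 60 of the 76 carrier probes matched a RefSeq accession, each with the symbol the array gives. The carriers resemble each other, so the probes were compared with each other first. Of 2850 pairs of carrier probes, a single pair was at least 80% identical over at least 40 bases without gaps. It joined the probes of the 2 ADP/ATP carriers of the heart, Slc25a4 (also called ANT1) and Slc25a5 (ANT2), which matched at 45 of 54 shared bases (83.3%). They are shown because the readings of both genes could share signal, with capitals at the 9 bases that differ:
Slc25a4 A_51_P108334: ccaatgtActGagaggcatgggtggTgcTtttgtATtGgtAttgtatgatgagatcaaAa
Slc25a5 A_51_P475446: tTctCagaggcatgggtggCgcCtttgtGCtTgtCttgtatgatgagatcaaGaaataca

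The family is recognised by a signature motif that recurs in each repeat, a proline, any residue, an acidic residue, 2 more residues and a basic one. The codons of this signature, in a frame without a stop codon, were found in 4 of the 76 carrier probes (5.26%) and in 0.624% of all 41174 probes, read as printed. On the opposite strand the same search, which has no meaning for the protein, found 3 carrier probes (3.95%) and 0.491% of all probes. The match is a description of the probe letters only. The following 3 probes are shown as pieces of the family's shared architecture, with the signature codons in capitals:
Slc25a3 A_52_P299231: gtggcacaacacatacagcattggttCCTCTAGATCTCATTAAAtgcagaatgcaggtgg
Slc25a26 A_52_P313856: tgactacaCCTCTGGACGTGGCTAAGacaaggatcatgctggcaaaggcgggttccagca
Slc25a30 A_52_P656860: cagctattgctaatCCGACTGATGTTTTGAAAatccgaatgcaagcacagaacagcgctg

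Lrrc10 went against the labels. Its processed signal on replicates 1, 2 and 3 was 14283, 20828 and 17703 in Cy5, which by label holds Lrrc10-/- RNA, against 476, 443 and 352 in Cy3. Whether the channel labels are exchanged, or the Lrrc10 probe lies outside the deleted part, was not tested. Directions below are therefore given by channel, and if the labels are exchanged each of them turns with respect to genotype. Of 43379 gene spots, 28942 to 30269 were well above background in Cy3 and 30512 to 30810 in Cy5, 55 to 126 were saturated in Cy3 and 140 to 197 in Cy5. Marker lists of other cells moved between arrays. The list for fat had median log2 ratios, Cy5 over Cy3, of 0.26, -0.14 and -0.70 on replicates 1, 2 and 3, that for skeletal muscle 0.12, -0.20 and 0.11, and that for atria -0.16, 2.45 and -0.46. Across all 29576 probes tested, the log2 ratios of different arrays correlated at r = 0.10, -0.04 and -0.18 (Pearson, across probes, which share arrays and are no replicates).

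In the whole family no carrier changed by the test across all probes. A probe was tested when the geometric mean of its 6 processed signals was at least 20, which kept 66 probes of 40 carriers, among 29576 probes of 20248 genes. With limma and Benjamini-Hochberg adjustment 0 of the 66 were called in either direction, where 0.00676% of all tested probes were called brighter in Cy5 and 0% brighter in Cy3. The lowest adjusted p among the carriers was 1.00 by limma. At an unadjusted p under 0.05, 1 carrier probe was brighter in Cy5 and 1, a saturated probe of Slc25a4, in Cy3, where 1.54% and 1.52% of all tested probes were, and by the methods' t-test with the same adjustment 0 were called. The mean log2 ratios of the 64 probes below saturation ran from -0.52 to 0.60 with a median of 0.06, and over all 66 the median was 0.05, against 0.001 for all tested probes.

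The arrays were then read 1 by 1. Of the 66 probes 8 kept to the Cy5 side on every array (12.1%) and 8 to the Cy3 side (12.1%), against 10% and 11% of all tested probes, and the other 50 changed sides. Of the 8 on the Cy3 side 2 are the saturated Slc25a4 probes, and among the 64 unsaturated probes 6 kept to that side (9.38%, against 10.8% of all unsaturated probes). With the background modelled (normexp) and each array centred on its median in place of the deposited normalization the split was 37 and 4 (56.1% and 6.06%, against 41.2% and 11.6% of all tested probes), and the median of all tested probes moved to 0.16. The median of the carriers was 0.07, 0.05 and 0.07 on replicates 1, 2 and 3, close to 0 on each as deposited, and over the arrays the median of their means was 0.05, but 0.24 with normexp and median centring and 0.18 without dye normalization (0.16 and 0.11 for all tested probes). The stricter selection, at least 1.2-fold and an array p under 0.05 on every array, took 1 carrier probe in Cy5, of Ucp2, and 1 in Cy3, of Slc25a4, where it took 0.406% and 0.507% of all tested probes. Between arrays the carriers' ratios correlated at r = 0.15, -0.04 and 0.04 across the 66 probes.

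**Figure D1:**
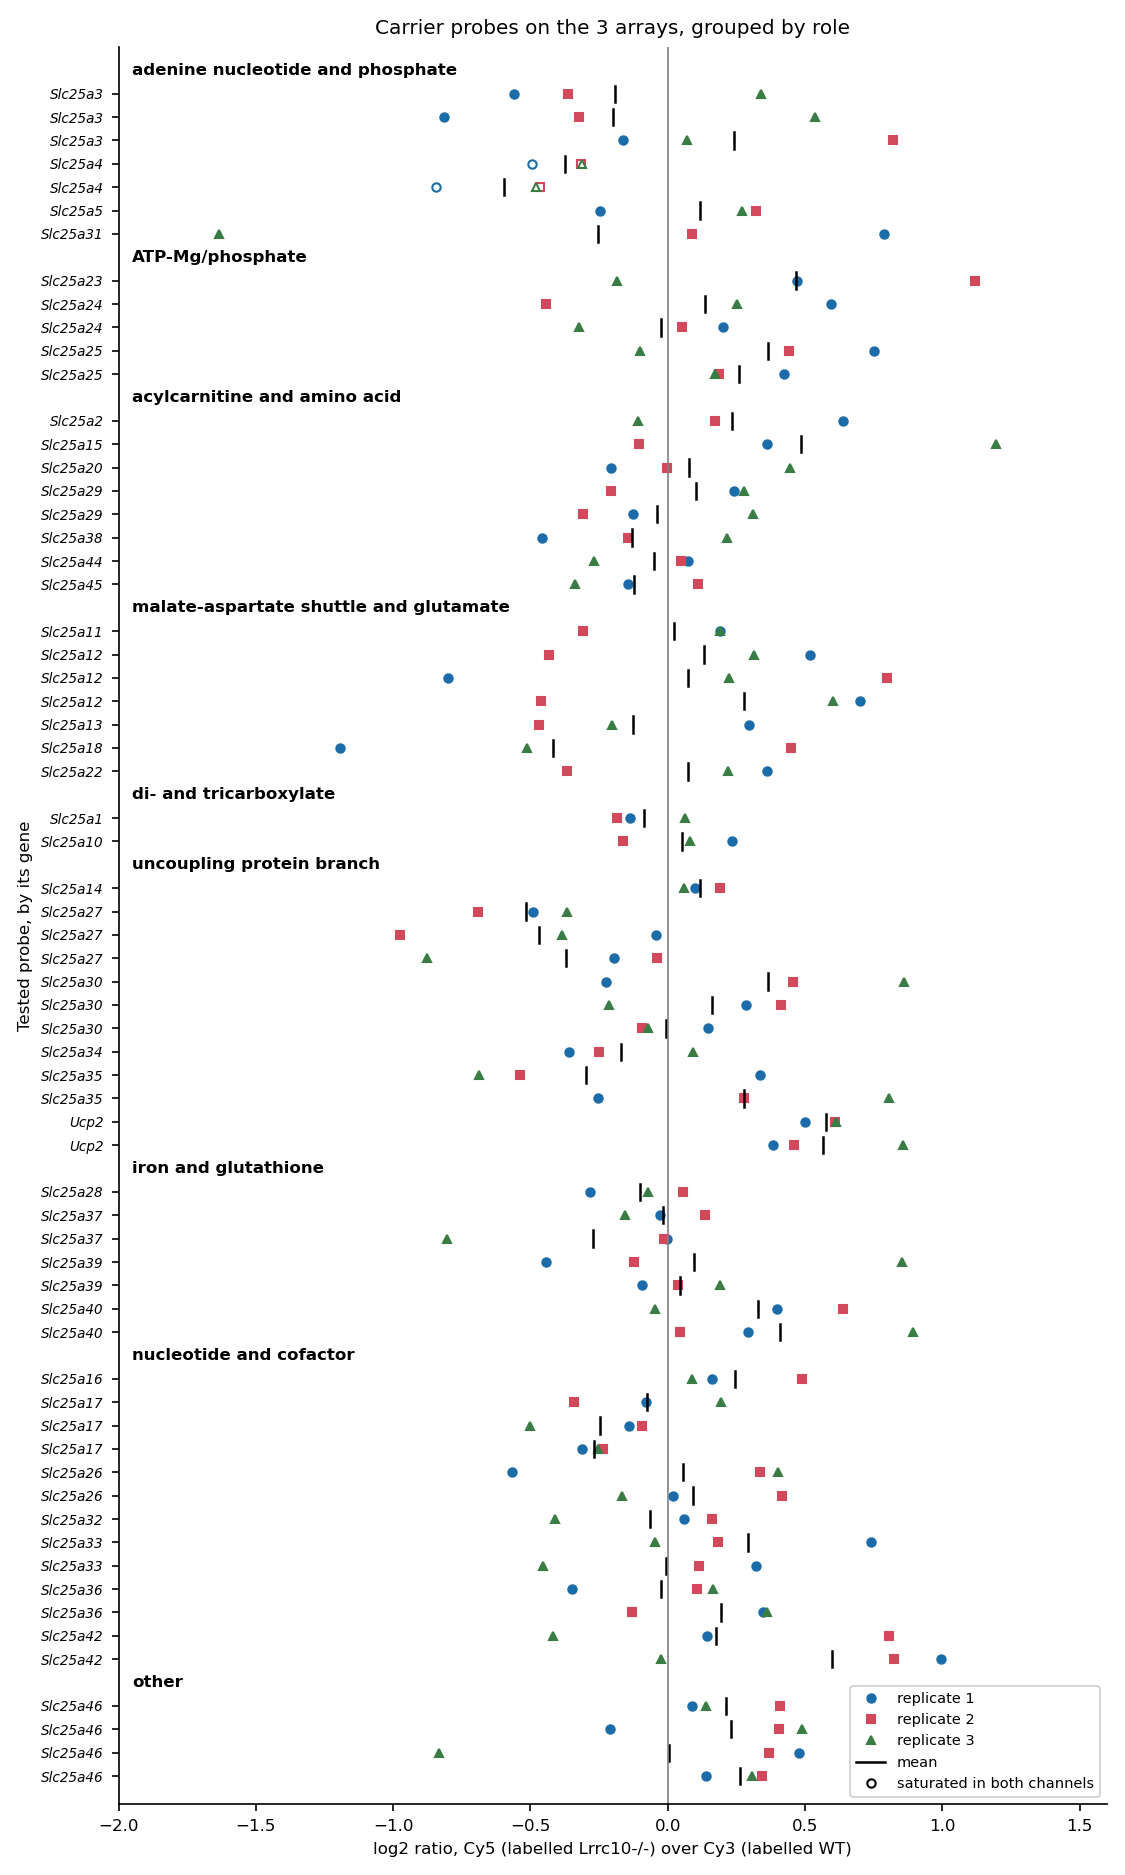
Log2 ratio, with Cy5 (Lrrc10-/- by label) over Cy3 (WT by label), for 65 of the 66 tested carrier probes, with a marker for each replicate and a black bar at the mean, grouped by role. Most rows cross 0. Both Ucp2 rows lie to the right of it and the Slc25a27 and Slc25a4 rows to its left on all 3 arrays as deposited. With median centring 1 Slc25a27 mean turns to 0.13, where the median of all tested probes was 0.16.

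The ADP/ATP carriers and the phosphate carrier supply oxidative phosphorylation with its substrates. Slc25a4, the main ADP/ATP carrier of heart muscle, was the only tested member at the limit of the scanner, and both of its probes were saturated throughout, in Cy3 and in Cy5 on every array, so no fold is given for it. The log2 ratio of A_51_P108334 was -0.50, -0.32 and -0.31 and that of A_52_P105040 was -0.84, -0.47 and -0.48 on replicates 1, 2 and 3, all towards Cy3. Read by the channel labels, this is the opposite of the direction that the study gives for the gene, and with the channels exchanged it is the same. With both channels saturated neither reading has a measured ratio from these arrays behind it. The study's figure for this pathway also holds qRT-PCR, with primers listed for Slc25a4, a measure apart from these arrays that was not compared here. Before dye normalization the largest and the smallest of these 6 ratios were both 0.0004, with each channel at its ceiling. The same held across the array, where 36 tested probes reached saturation in Cy3 and in Cy5 on every array, the largest unnormalized log2 ratio was 0.015 in size, and all 36 were brighter in Cy3 after normalization, with medians of -0.73, -0.41 and -0.39. The second Slc25a4 probe, which the selection took, is shown for reference, with no capitals because no part of it is singled out:
Slc25a4 A_52_P105040: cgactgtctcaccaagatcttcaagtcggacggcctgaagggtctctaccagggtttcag

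Slc25a5, whose probe shares the stretch printed above, was below saturation. It gave 63505, 68002 and 72803 in Cy3 and 53593, 85006 and 87910 in Cy5. Its log2 ratio was -0.24, 0.32 and 0.27, so replicate 1 lay on the other side from the rest, and its mean of 0.12 ± 0.31 (SD, n = 3) was within the spread between arrays.

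Slc25a3, the phosphate carrier, had 3 probes that differed among themselves. The bright pair, A_51_P269652 at -0.56, -0.36 and 0.34 and A_52_P299231 (the signature probe printed above) at -0.81, -0.32 and 0.54, moved together, with Cy3 brighter on replicates 1 and 2 and Cy5 on replicate 3. The dim probe A_52_P486063 read -0.16, 0.82 and 0.07. In the bright pair the level in Cy5 carried the movement, from 21001 on replicate 1 to 59845 on replicate 3 for A_52_P299231, while Cy3 stayed between 36941 and 41271. Slc25a31, the ADP/ATP carrier of the male germ line, had the widest spread of the tested carrier probes, with an SD of 1.25. This was at the 98.8th percentile of the 25557 tested probes that were unsaturated and well above background. In Cy3 it gave 92.2, 108 and 636 and in Cy5 159, 114 and 205, so the Cy3 pool of replicate 3 stood apart from the others. On that array the germ cell list (Prm1, Prm2, Tnp1, Tnp2) summed to 3254 in Cy3 and 1940 in Cy5, against 1153 and 886 in Cy3 and 1509 and 1654 in Cy5 on replicates 1 and 2. Its median ratio was 0.42, 1.04 and 0.05 over 5 tested probes, 2 of which were brighter in Cy5 on every array (40%, against 10% of all tested probes). The part of this list in the Slc25a31 reading was not tested.

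The ATP-Mg/phosphate carriers let calcium adjust the adenine nucleotide pool of the matrix. Their 5 tested probes, of Slc25a23, Slc25a24 and Slc25a25, were all brighter in Cy5 on replicate 1 (median 0.47), 4 were on replicate 2 (0.19) and 2 on replicate 3 (-0.10). Slc25a23 read 333, 226 and 474 in Cy3 and 462, 491 and 417 in Cy5, or a log2 ratio of 0.47, 1.12 and -0.19. Its Cy5 level was similar on the 3 arrays, and its Cy3 level was not. Slc25a25 A_51_P193173 read 0.75, 0.44 and -0.10 and A_51_P193176 0.43, 0.19 and 0.17. The latter was the single probe of the group that was brighter in Cy5 on every array (20%, against 10% of all tested probes). Slc25a41, the remaining gene of the group, had a single probe, which was not well above background in either channel on any array.

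The carriers of acylcarnitines and amino acids feed fatty acid oxidation and the urea and haem pathways. Their 8 tested probes of 7 genes included none that kept 1 side on all arrays, where 10% of all tested probes kept to Cy5 and 11% to Cy3. Slc25a20, the carnitine/acylcarnitine carrier that brings fatty acids to beta-oxidation, read 10360, 13373 and 5345 in Cy3 and 8982, 13337 and 7280 in Cy5, a mean log2 ratio of 0.08 ± 0.33 (SD, n = 3). The largest mean of the group as deposited was that of Slc25a15, the ornithine carrier, at 0.48 ± 0.66, with 0.36, -0.10 and 1.196 on the arrays. Its mean was 0.068 with normexp and loess, 0.070 with median centring, 0.13 without replicate 3 and 0.78 without replicate 2. Its signal was low, 25.6 to 148 in Cy3 and 58.6 to 138 in Cy5. Slc25a38, which brings glycine in for haem synthesis, had a mean of -0.13 ± 0.34, and Slc25a44, a carrier of branched-chain amino acids, of -0.05 ± 0.19.

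The malate-aspartate shuttle carries reducing equivalents from cytosolic NADH into the matrix, through the 2-oxoglutarate/malate carrier Slc25a11 and the aspartate/glutamate carriers Slc25a12 and Slc25a13. With the glutamate carriers Slc25a18 and Slc25a22 the group had 7 tested probes, whose median was 0.29, -0.37 and 0.22. Replicate 2 lay on the other side from the rest, with 5 of 7 probes brighter in Cy3, where 5 of 7 were brighter in Cy5 on each of the other arrays. Slc25a11 read 95655, 173581 and 97920 in Cy3 and 109123, 140070 and 111790 in Cy5. Its ratio of 0.19, -0.31 and 0.19 thus turned with the Cy3 level. Slc25a12 A_51_P430620 read 0.52, -0.43 and 0.31, Slc25a13 0.29, -0.47 and -0.20 and Slc25a22 0.36, -0.37 and 0.22. The dim Slc25a12 A_52_P1196751 went the other way on that array, with -0.80, 0.80 and 0.22. So did Slc25a18, which read -1.19, 0.45 and -0.51, a mean of -0.42 ± 0.82 (SD, n = 3) that was -0.03 without replicate 1, -0.85 without replicate 2, -0.09 with normexp and loess, -0.10 with median centring and -0.16 without dye normalization. Its signal was low, 42.6 to 132 in Cy3 and 34.0 to 92.7 in Cy5.

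Partner enzymes turned on the same array. The 16 tested probes of 10 enzymes that work with these carriers (aspartate aminotransferases, malate and glycerol-3-phosphate dehydrogenases, carnitine acyltransferases) had medians of 0.19, -0.60 and 0.16, and 14 of the 16 were brighter in Cy3 on replicate 2. The cardiomyocyte list (Myh6, Actc1, Tnni3, Myl2, Ryr2) had medians of 0.03, -0.53 and -0.10 over 9 probes, 8 of them brighter in Cy3 on replicate 2, and its summed signal there was 1468330 in Cy3 and 1023860 in Cy5. Of these 9 probes 6 were saturated on at least 1 array, and the median on replicate 2 is the ratio of Myl2, saturated in both channels throughout, so this list and its sums are limited in the same way as Slc25a4. The 3 probes of Ryr2, none of them saturated, read -1.54, 0.49 and -1.08 on replicate 2. The atrial list summed to 1436 in Cy3 and 7102 in Cy5 on that array, and to at most 1030 in either channel on the others. Fewer heart muscle cells and less RNA per cell cannot be told apart in bulk RNA, and the part of these differences in the shuttle readings was not tested. By limma 0 probes of the enzyme list were called and 1, a saturated probe of Mdh2, passed an unadjusted p under 0.05.

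The di- and tricarboxylate carriers exchange citrate, malate and succinate. They were the most even group, with mean log2 ratios of -0.09 ± 0.13 for the citrate carrier Slc25a1 and 0.05 ± 0.20 for the dicarboxylate carrier Slc25a10 (SD, n = 3). Slc25a1 read 324, 406 and 226 in Cy3 and 295, 357 and 236 in Cy5. Both probes of Slc25a21, the oxodicarboxylate carrier, were not well above background in either channel on any array.

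Ucp2 and its nearest relatives make up the uncoupling protein branch. Of its 12 tested probes 3 kept to the Cy5 side and 3 to the Cy3 side on all arrays (25% each, against 10% and 11% of all tested probes). The Cy5 side held probes of Ucp2 and Slc25a14, and the Cy3 side those of Slc25a27 alone. The median of the branch was 0.03, 0.08 and -0.01. Ucp2 encodes an uncoupling protein found in many tissues and abundant in blood and immune cells. Its probe A_51_P297105 spans the end of the coding sequence, shown here up to the stop codon, which is in capitals:
Ucp2 A_51_P297105: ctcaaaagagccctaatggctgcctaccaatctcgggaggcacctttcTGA

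This probe gave 405, 542 and 253 in Cy3 and 573, 827 and 386 in Cy5 on replicates 1, 2 and 3. Within every array Cy5 was the brighter channel, although over arrays the channels overlapped, with both of them lowest on replicate 3. Its log2 ratio was 0.50, 0.61 and 0.61, a mean of 0.57 ± 0.06 (SD, n = 3) or 1.49-fold, with a limma interval (95%) of 0.11 to 1.04 and a limma p of 0.022 before and 1.00 after adjustment over all probes. A second probe, A_52_P90265, read 63.6, 106 and 47.7 in Cy3 and 83.1, 145 and 86.4 in Cy5, or 0.38, 0.46 and 0.86, a mean of 0.57 ± 0.25 that was 0.03 at its lowest among the alternative settings. That lowest value, with median centring, was below the median of all tested probes in the same setting (0.16). The third, A_52_P499675, was not well above background in Cy3 on any array and was in Cy5 on 2 of 3, at too low a level for a bound on the fold. Both measured Ucp2 probes therefore lay on 1 side on all arrays as deposited, and neither passed the test across all probes.

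White blood cell genes were read beside Ucp2. Their list had 12 tested probes of 7 genes, with medians of -0.13, 0.12 and 0.30, 1 probe brighter in Cy5 on every array and 1 in Cy3 (8.33% each, against 10% and 11% of all tested probes). Summed over the list, Cy3 gave 114678, 89562 and 97656 and Cy5 108369, 168641 and 124331, most of it from 1 Lyz2 probe that was saturated in Cy5 on 1 array. Of its 15 probes 3 were not above background anywhere, 2 of Ptprc and 1 of Cd3e, each with other probes that were. The part of such cells in the Ucp2 reading was not tested.

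Slc25a27 (UCP4), an uncoupling protein relative best known from brain, lay on the other side from Ucp2. On every array Cy3 was the brighter channel for all 3 of its probes as deposited, and the mean of 1 of them turned with another scaling. One of them is shown:
Slc25a27 A_52_P100069: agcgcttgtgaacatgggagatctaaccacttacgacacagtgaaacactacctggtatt

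A_51_P125771 read 223, 331 and 179 in Cy3 and 159, 205 and 139 in Cy5, a log2 ratio of -0.49, -0.69 and -0.37. A_52_P100069 read -0.04, -0.97 and -0.38, and A_52_P104091 -0.20, -0.04 and -0.88, so each of these had an array close to 0 and neither shared its largest difference with the other. The means were -0.52 ± 0.16, -0.47 ± 0.47 and -0.37 ± 0.44 (SD, n = 3), and none was called by limma. With normexp and loess they shrank to -0.26, -0.03 and -0.12. With median centring they were -0.17, -0.07 and 0.13, all below the median of all tested probes in that setting (0.16). The mean of A_52_P100069 was -0.68 without replicate 1 and -0.21 without replicate 2. That of A_52_P104091 was -0.54 without replicate 2 and -0.12 without replicate 3.

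The rest of the branch was uneven between probes and arrays. Slc25a35, whose substrate is not settled, had probes with means of opposite sign, A_52_P436447 at 0.34, -0.54 and -0.69 and A_52_P590756 at -0.25, 0.28 and 0.81. Both probes also moved between arrays in both channels at once, the first from 116 and 146 (Cy3 and Cy5) on replicate 1 to 635 and 394 on replicate 3, the second from 4656 and 3906 to 806 and 1410. The mean of A_52_P436447 was 0.07 with median centring in place of the deposited normalization, where the median of all tested probes was 0.16. Slc25a30, a kidney-type relative, had means of 0.36 ± 0.55, 0.16 ± 0.33 and -0.01 ± 0.13 for its 3 probes. The first, A_51_P354652, read -0.23, 0.46 and 0.86, and its mean was 0.74 with median centring, 0.66 without replicate 1 and 0.12 without replicate 3. The last is the signature probe printed above and was the most even of the tested carrier probes, with no ratio beyond 0.15 in size. Slc25a14 (UCP5) A_51_P311166 read 0.10, 0.19 and 0.06. It was brighter in Cy5 on all arrays, by small and similar amounts.

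**Figure D2:**
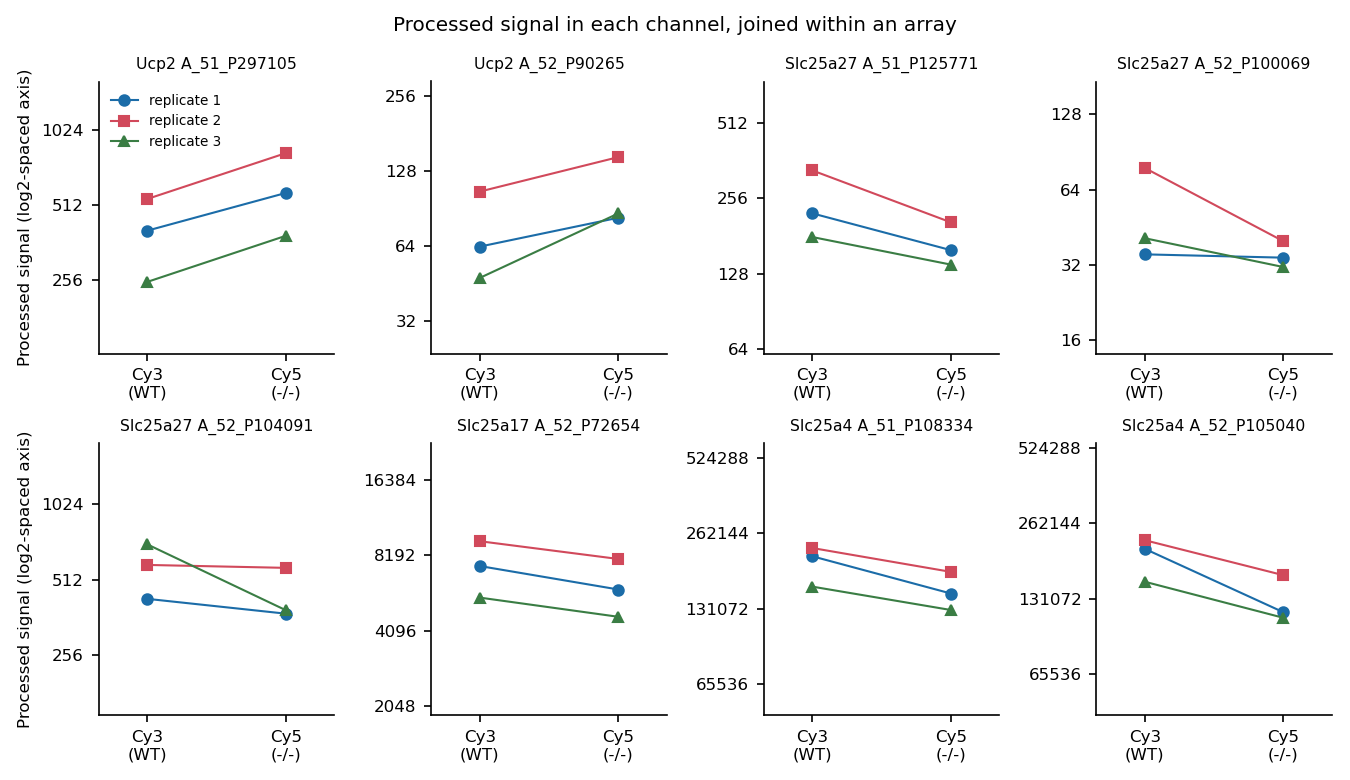
Processed signal in Cy3 (labelled WT) and Cy5 (labelled Lrrc10-/-) on log2-spaced axes of equal span, for 8 probes of Ucp2, Slc25a27, Slc25a17 and Slc25a4, with a line joining the channels of each replicate. Every Ucp2 line rises towards Cy5 and every other line falls. The lines of Slc25a27 A_52_P100069 on replicate 1 and A_52_P104091 on replicate 2 are nearly flat, and both Slc25a4 panels are saturated. With median centring the means of Slc25a27 A_52_P104091 and Slc25a17 A_52_P72654 lie above 0, at 0.13 and 0.04. Both lie below the median of all tested probes in that setting (0.16).

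Mitoferrins bring iron into the matrix for haem and iron-sulfur clusters, and Slc25a39 and Slc25a40 carry glutathione. Their 7 tested probes had medians of -0.03, 0.04 and -0.05. Slc25a37 (mitoferrin 1) A_51_P343429 read 3267, 4971 and 2656 in Cy3 and 3208, 5464 and 2383 in Cy5, a mean of -0.02 ± 0.15, and was among the 5 most even carrier probes. Its dim probe A_52_P507688 gave 111, 106 and 390 in Cy3, then 111, 105 and 224 in Cy5. Like the first it was near 0 on replicates 1 and 2, but it was at -0.80 on replicate 3. Its mean of -0.27 was 0.007 with median centring, where the median of all tested probes was 0.16. The red cell list (globins, Alas2, Slc4a1) had medians of 0.45, 0.59 and -0.34 over 7 probes and summed to 422112, 534218 and 603203 in Cy3 and 525162, 717318 and 457225 in Cy5. Of these 7 probes 4, all of globins, were saturated on at least 1 array and make up most of the sums, which are limited accordingly. Alas2, the haem synthesis enzyme of red cell precursors, was not saturated and read 0.63, 1.04 and -0.32. The part of the red cell list in the mitoferrin readings was not tested. The tested probes of Slc25a40 had means of 0.33 ± 0.35 and 0.41 ± 0.44, at 0.40, 0.64 and -0.05 and at 0.29, 0.04 and 0.89. The second of these means, of A_52_P17817, was 0.10 with normexp and loess, 0.14 with median centring and 0.17 without replicate 3. The bright probe of Slc25a39, A_52_P560792, read -0.09, 0.04 and 0.19 and its dimmer probe, A_51_P121455, -0.44, -0.12 and 0.85. Slc25a28 (mitoferrin 2) had a mean of -0.10 ± 0.17.

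The largest group was that of nucleotide and cofactor carriers, 14 tested probes of 8 genes, with 1 probe brighter in Cy5 and 2 in Cy3 on all arrays (7.14% and 14.3%, against 10% and 11% of all tested probes). The steadiest was a probe of Slc25a17, the peroxisomal carrier of coenzyme A, FAD and related cofactors. A_52_P72654 read 7422, 9328 and 5549 in Cy3 and 5978, 7919 and 4649 in Cy5, a log2 ratio of -0.31, -0.24 and -0.26. Its SD of 0.04 was the smallest among the 66 carrier probes, and the mean of -0.27 was not called by limma. With median centring the mean became 0.04, still below the median of all tested probes in that setting (0.16). The other Slc25a17 probes read -0.14, -0.09 and -0.50 and -0.08, -0.34 and 0.20.

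Slc25a42, a coenzyme A carrier, had the highest mean of the tested carrier probes as deposited. A_52_P145011 gave 204, 221 and 313 in Cy3 and 406, 392 and 308 in Cy5, or 1.00, 0.82 and -0.02, a mean of 0.60 ± 0.55 (SD, n = 3), and its dim second probe gave 0.14, 0.81 and -0.42. The mean of A_52_P145011 was 0.18 with normexp and loess, below the 0.46 of Ucp2 A_51_P297105, 0.34 with median centring and 0.91 without replicate 3. Cy5 exceeded Cy3 on replicates 1 and 2, and on replicate 3 the channels met. Slc25a16, linked to coenzyme A, read 0.16, 0.49 and 0.09 and was brighter in Cy5 on all arrays. The pyrimidine nucleotide carriers Slc25a33 and Slc25a36 had means between -0.02 and 0.29, the S-adenosylmethionine carrier Slc25a26 0.06 and 0.09, and the FAD and folate carrier Slc25a32 -0.06 ± 0.30.

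Slc25a46 stands apart in the family, because its protein sits in the outer membrane and takes part in mitochondrial fission. Of its 4 tested probes 2 kept to the Cy5 side (50%, against 10% of all tested probes), A_51_P176711 at 0.09, 0.41 and 0.14 and A_52_P600304 at 0.14, 0.34 and 0.31. A_52_P21724 read -0.21, 0.40 and 0.49, and the dimmest probe was not well above background in Cy3 on any array. The 2 probes of Slc25a43 were below that level in both channels on all arrays. In all, 10 probes were too dim to test, and Slc25a21, Slc25a41 and Slc25a43 had no tested probe.

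Where a carrier was measured by more than 1 probe, the probes could be set against each other. Of 19 genes with several tested probes, 12 had means of 1 sign. Ucp2 and Slc25a40 were among them, as were Slc25a17 and Slc25a27. The means of Slc25a17 A_52_P72654 and Slc25a27 A_52_P104091 turned with median centring, but stayed below the median of all tested probes there (0.16). Slc25a4 was also among the 12, but its probes are saturated and say nothing here. Slc25a35 was the single gene whose probes disagreed by over 0.5.

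The channels did not vary alike between arrays. The mean log2 signal of both channels was scaled to a distribution common to the arrays, which left the ratios within each array unchanged. The log2 level of a carrier probe then had a median SD over the 3 arrays of 0.31 in Cy3, labelled WT, and 0.18 in Cy5. Cy3 was the more variable channel for 50 of 66 carrier probes (75.8%) and for 78.2% of all tested probes, so the carriers followed the array as a whole. The median SD of the ratio was 0.33 for the carriers and 0.39 for all tested probes. Slc25a3 A_52_P299231, described above, was among the exceptions with more spread in Cy5.

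**Figure D3:**
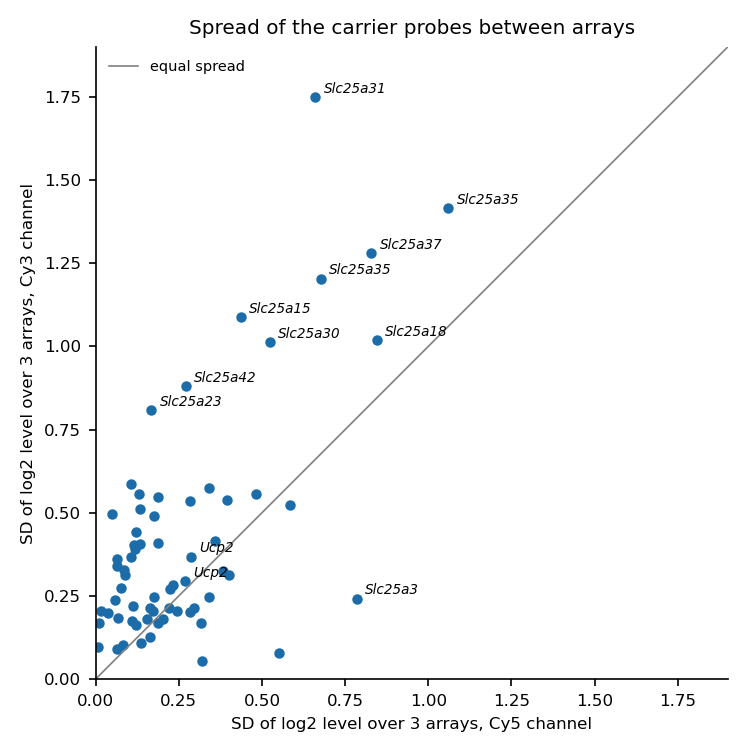
SD over the 3 arrays of the scaled log2 level in Cy5 (horizontal) and in Cy3 (vertical) for each of the 66 tested carrier probes, with a line of equal spread and gene names at the widest probes and Ucp2. Of the points 50 lie above the line, and Slc25a31 is the highest.

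Related transport genes outside the symbol rule were read from lists. Of the other family members, Ucp3, Mtch1 and Mtch2 had 6 tested probes, and Ucp1, the uncoupling protein of brown fat, was too dim to test. Of these 6, 0 kept 1 side on all arrays. The outer membrane channels and their partners (Vdac1 to Vdac3, hexokinases, mitochondrial creatine kinases, Tspo, Ppif) had 15 tested probes, 1 brighter in Cy5 and 2 in Cy3 on all arrays (6.67% and 13.3%). Of these Cy3 probes that of Ckmt2 was saturated in Cy3 on 2 arrays and in Cy5 on 3. Other inner membrane transporters (pyruvate carrier subunits under their older names Brp44 and Brp44l, sideroflexins, calcium uniporter genes and Abcb10) had 20 tested probes, with 0 and 3 (0% and 15%). Of all tested probes 10% were brighter in Cy5 and 11% in Cy3 on every array. Limma called 0 in these 3 lists, and 0 passed an unadjusted p under 0.05. By the methods' t-test with the same adjustment 0 of all tested probes were called.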

How the data were processed

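The authors deposited 1 Agilent Feature Extraction 9.1.3.1 output per array: mean and background signal intensities as scanned, and processed intensities with background subtracted and dyes normalized within the array (linear and lowess). They also deposited, for each spot, a log10 ratio of Cy5 to Cy3 and its p-value. The authors' separate table of log10 ratios equalled these where it had a value. The deposited ratio was not always that of the processed signals. For Slc25a21 A_51_P454057 on replicate 1 it was 0, with signals of 5.40 in Cy3 and 4.41 in Cy5. Apart from gene spots with a surrogate signal in both channels (5566 to 6159 per array), the largest difference was 0.162 on the log10 scale. Arrays shared a slide and scan, with no batch to compare; embryonic hearts were not analysed here.

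Ratios were put on the log2 scale, outlier spots left out (11, 21 and 4 per array, none of a carrier) and spots of a probe averaged. Probes with values on all arrays and a geometric mean processed signal of at least 20 were tested against 0 with limma 3.58.1 (R 4.3.3, intensity trend, two-sided, Benjamini-Hochberg at 0.05 over all tested probes). The number of arrays limits precision. The selection used the study's 1.2-fold and the deposited p-value under 0.05 on every array. For channel spread, Aquantile scaling was applied.

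Named probes were Slc25a4, Ucp2, those selected, up to 8 per direction by mean, the 5 most even, genes with probes over 0.5 apart, and dim ones; other members were added for their roles after values were seen. The values of 1 carrier are not reported here, though it is in the counts. The members and lists were chosen with earlier results of these data known. Lists covered related carriers, partners, inner membrane transport, shuttle enzymes, cardiomyocytes, atria, fat, skeletal muscle, red and white blood cells and germ cells. Alternatives changed background, dye normalization, signal minimum (none, 100), saturated probes, variance model, test and replicates. Probe sequences are those of the array files; no genome build is named in them, so no coordinates are given.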

Additional observations from a re-analysis of the deposited data

How the results depend on the processing

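No setting made limma call a carrier probe. The lowest adjusted p of a carrier was 0.069, with normexp background correction and median centring, and limma without replicate 3 called 543 probes over the array and 0 carriers. Normexp with median centring gave 37 carrier probes brighter in Cy5 and 4 in Cy3 on every array, a carrier median of 0.24 (0.16 for all probes) and no selected probe in Cy3 (0), and it turned the means of Slc25a27 A_52_P104091 (0.13), Slc25a35 A_52_P436447 (0.068), Slc25a37 A_52_P507688 (0.0073) and Slc25a17 A_52_P72654 (0.038). Without dye normalization these were 18 in Cy5, a median of 0.18 (0.11 for all probes) and 0 selected in Cy3. Normexp with loess gave a carrier median of 0.029, and no signal minimum or leaving out saturated probes 0.064 each, the latter with 0 selected in Cy3, since that probe was the saturated Slc25a4. The p of the methods' t-test selected 3 in Cy3 (334 of all probes, from 150), and fold alone 2 in Cy5 and 3 in Cy3 (507 and 577 of all probes). Lrrc10 kept its ratio of 5.37 but lost its call with no signal minimum (adjusted p = 0.98) and by the methods' t-test (adjusted p = 1.00), and without replicate 2 (5.28, limma adjusted p = 0.079). Leaving out 1 replicate, which asks for 1 array fewer, gave 2 to 4 selected in Cy5 (571 to 1166 of all probes), 2 in Cy3 each time (436 to 663), 17 to 23 on the Cy5 side and 11 to 17 on the Cy3 side of the remaining arrays (25.8% to 34.8% and 16.7% to 25.8%, against 22.0% to 25.8% and 22.2% to 26.2% of all probes), and carrier medians of 0.033 to 0.038, and a Lrrc10 ratio of 5.23 to 5.60. Normexp with loess also brought Slc25a18 to -0.09, Slc25a40 A_52_P17817 to 0.10 and Slc25a23 to 0.30. The causes were not tested. Of the unsaturated tested probes named for Ucp2 or for the size of their mean, those reported here other than the 4 above kept their sign in these settings. The mean of Ucp2 A_52_P90265 came down to 0.03 with median centring, below the median of all probes there (0.16), as were the 4 turned means. The saturated Slc25a4 probes were at -0.0075 and -0.0077 in that setting. Saturation limits Slc25a4.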
